A study of Mus musculus with 10 samples.

Results

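The genes described here encode the proteins of the cytosolic ribosome. They were taken as every protein-coding gene whose mouse symbol has the form Rpl or Rps followed by a number, with a, l or x after it where present, together with Rpsa and the stalk genes Rplp0, Rplp1 and Rplp2. Of the 16112 genes counted, 78 met this rule, 47 of the large subunit (Rpl) and 31 of the small subunit (Rps). GENCODE M21 lists 80 such genes, and the other 2, Rpl10l and Rpl39l, were not analysed here. RNA was sequenced from 10 muscle samples of wild-type mice of the strain labelled B6C3Fe a/a-Ttnmdm/J, aged 32 to 54 days. The strain carries the mdm allele of titin, and the animals used here were labelled wild type. The samples were 3 of extensor digitorum longus (EDL, a fast lower-leg muscle), 3 of psoas (a fast muscle of the trunk) and 4 of soleus (a slow postural muscle). The labels gave 7 animal codes, and 3 of these held 2 libraries each, namely psoas 1 with soleus 1, EDL 3 with soleus 2, and psoas 3 with soleus 4.

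The ribosome joins a large subunit, which forms the peptide bond, to a small subunit, which reads the message. Each subunit is built on ribosomal RNA with many small basic proteins, most of them made from a single gene at near-equal amounts. The messages for these proteins begin with a run of pyrimidines, the 5′ terminal oligopyrimidine (TOP) motif, through which the kinase complex mTORC1 sets their translation together. A few proteins have a paralog with a restricted pattern, and skeletal and cardiac muscle are known for Rpl3l, which takes the place of Rpl3 in the large subunit. Adult muscle also makes Eef1a2, a muscle form of the elongation factor Eef1a1. Mammalian genomes hold many reverse-transcribed copies of ribosomal protein messages, so that a short read from one gene may match several places.

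The first bases of the coding sequences show how far the paralogs can be told apart, and the letters that differ are in capitals. Both pairs are from the GRCm38 transcripts of GENCODE M21.
Rpl3: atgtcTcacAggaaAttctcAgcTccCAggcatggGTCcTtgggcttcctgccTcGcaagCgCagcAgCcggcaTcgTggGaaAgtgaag
Rpl3l: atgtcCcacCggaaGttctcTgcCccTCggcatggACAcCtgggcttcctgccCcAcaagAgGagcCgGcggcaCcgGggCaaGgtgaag
Rps27: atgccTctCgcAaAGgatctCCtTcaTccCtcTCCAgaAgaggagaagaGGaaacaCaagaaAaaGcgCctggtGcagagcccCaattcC
Rps27l: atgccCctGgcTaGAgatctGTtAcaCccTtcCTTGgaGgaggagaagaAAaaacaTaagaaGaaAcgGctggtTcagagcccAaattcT
In these first 90 bases Rpl3 and Rpl3l differed at 21 positions, and Rps27 and Rps27l at 24. Over the aligned coding sequence the pairs were 74.85% and 76.08% identical, and the longest run of bases shared without a difference was 22 for Rpl3 and Rpl3l and 11 for Rps27 and Rps27l.

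The stretch from 60 bases before to 20 after the annotated start is given next for 5 members, in RefSeq GRCm38.p6. Any link between these sequences and the levels of the members was not tested. Capitals mark CTTTC (a TOP-like run) and CCGGAAG (the core bound by ETS factors), searched on both strands.
Rpl28, chr7:4792905-4792984, plus strand: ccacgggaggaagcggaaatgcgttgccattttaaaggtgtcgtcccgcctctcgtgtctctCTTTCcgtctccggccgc
Rpl41, chr10:128549149-128549228, minus strand: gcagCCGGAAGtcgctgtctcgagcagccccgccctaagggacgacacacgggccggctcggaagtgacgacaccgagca
Rps27, chr3:90213629-90213708, minus strand: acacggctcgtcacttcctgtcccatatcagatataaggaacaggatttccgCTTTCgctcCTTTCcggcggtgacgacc
Rps27l, chr9:66946026-66946105, plus strand: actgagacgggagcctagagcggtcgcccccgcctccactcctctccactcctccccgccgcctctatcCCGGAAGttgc
Rpl3l, chr17:24727766-24727845, plus strand: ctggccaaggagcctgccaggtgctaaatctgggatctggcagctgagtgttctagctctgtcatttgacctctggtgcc
The stretch of Rpl3l held neither motif, and neither did the same stretch of Rps13 or of Rplp0, while a second annotated start of Rpl3l had CTTTC in its 300-base window. The 300-base window of the Rps27l start shown held both motifs, that of Rplp0 held CTTTC, and that of Rps13 held neither. The promoter table covered 58 of the 78 members with 70 windows, each from 250 bases before to 50 after a start. CTTTC lay within 20 bases of the start on the sense strand in 25.71% of the member windows and in 5.49% of all 32851 windows. Anywhere in the window and on either strand, CTTTC was in 81.43% of member windows and 57.33% of all, and CCGGAAG in 35.71% and 8.86%. Among the members without a window were Rpl3, Rpl23a, Rpl29, Rpl30, Rpl36, Rplp1, Rps14 and Rps29.

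The libraries were not alike, and this touches every result that follows. Totals ran from 12737971 to 50431713 counts. Reads had been trimmed in EDL 1 and 2 and psoas 1 and 2 and in no soleus library. By the study's own values, the share of reads mapped was lowest in EDL 1, psoas 1, psoas 2 and soleus 1. RNA integrity was lowest in psoas 1. The paper also states that the libraries were sequenced over several runs. It corrected for sequencing batch before its sample distances, principal components and heatmaps. Which library was in which run is not given in the sources used here. Run was therefore not a covariate in any fit here, and it cannot be told apart from trimming or the other differences between libraries. Lars2 and CT010467.1, genes known for drawing reads of ribosomal RNA, were summed in CPM (counts scaled so that every library has the same total). Together they held 107951 to 195647 CPM in EDL 1, psoas 1, psoas 2 and soleus 1, and at most 1427 CPM in each of the other 6. The muscles carried their defining markers: Myh4, the fast IIB myosin, was at 38374 to 56666 normalized CPM in EDL and psoas and at 113 to 1692 in soleus, while Myh7, the slow myosin, was at 6836 to 13574 in soleus and at most 117.0 elsewhere. The 10 tendon markers summed to 807 to 866 normalized CPM in EDL, 32.4 to 84.9 in psoas and 119 to 568 in soleus, and the 10 fibroblast markers to 3466 to 5209, 1065 to 1497 and 1488 to 2181. The 8 adipocyte markers summed to 342 to 444 in EDL, 571 to 620 in psoas and 1819 to 1970 in soleus. Of the remaining markers, 6 erythroid genes were at 5.82 to 73.8 in EDL, 16.8 to 136.9 in psoas and 3.54 to 25.8 in soleus. The 6 Schwann cell genes measured lay at 35.7 to 57.2, 18.6 to 90.4 and 30.7 to 43.7, the 8 endothelial genes at 137 to 237, 128 to 140.3 and 159 to 188, and the 8 macrophage genes at 123 to 322, 52.0 to 137 and 100.2 to 157. As a sign of how RNA was recovered, 8 nuclear and short non-coding RNAs were taken. Of these, 3 were lower in psoas than in EDL and 5 were lower in soleus than in EDL by edgeR. Between soleus and psoas 0 differed by edgeR, with 2 at an unadjusted p under 0.05, 2 called by DESeq2 and 1 by limma-voom. Of all genes, edgeR called 6.34% lower in psoas than in EDL and 8.8% lower in soleus than in EDL. In soleus vs psoas it called 7.75% higher and 6.78% lower. The part of all these differences between libraries and muscles in the results that follow was not tested, and p-values measure the spread between these samples only.

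The 78 members together took 0.666% to 1.74% of all counts, with the highest mean in soleus. Their summed level was 9126, 10815 and 15249 CPM of the library total in EDL 1 to 3, 6659, 8241 and 11938 CPM in psoas 1 to 3, and 12136, 14483, 14269 and 17362 CPM in soleus 1 to 4. The highest EDL library thus lay inside the soleus range, and every psoas library lay below every soleus library. The EDL mean was 11730 ± 3162 CPM (SD over 3 libraries), the psoas mean 8946 ± 2709 (3 libraries) and the soleus mean 14563 ± 2146 (4 libraries). Within EDL and within psoas the untrimmed library was the highest on this scale: 68 of the 78 members were higher in EDL 3 than in EDL 1 and 2, and 74 were higher in psoas 3 than in psoas 1 and 2. The share of all genes in the same order is not given here. With Lars2 and CT010467.1 left out of the total, the sums were 10843, 10830 and 15253 CPM in EDL 1 to 3. In psoas 1 to 3 they were then 7871, 10246 and 11940 CPM. Trimming and other differences between these libraries cannot be told apart.

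The scaling changed how EDL and psoas stood to each other. With TMM, which sets library sizes so that most genes do not shift, the sums were 9409, 9747 and 12576 in EDL, 8862, 11456 and 11682 in psoas, and 12866, 11630, 14494 and 14474 in soleus. The EDL and psoas ranges then overlapped, with means of 10577 ± 1739 and 10667 ± 1567 (SD, n = 3), and soleus stayed higher on average at 13366 ± 1386 (n = 4), with soleus 2 inside the range of the fast muscles. The soleus mean was the highest of the 3 muscles in 72 of 78 members on either scale. For this count and the counts of members that follow, the share of all genes is not given here. Whether they are particular to the members therefore cannot be told. With TMM, 61 members were higher in EDL 3 than in EDL 1 and 2, and 35 were higher in psoas 3 than in psoas 1 and 2. Psoas 1 was then the lowest of the 10 libraries in 43 members, and the part of its RNA integrity in this was not tested. Both subunits moved alike: the ratio of summed Rpl to summed Rps counts was 1.601 ± 0.0893 (SD) in EDL, 1.58 ± 0.0923 in psoas and 1.53 ± 0.0461 in soleus.

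**Figure D1:**
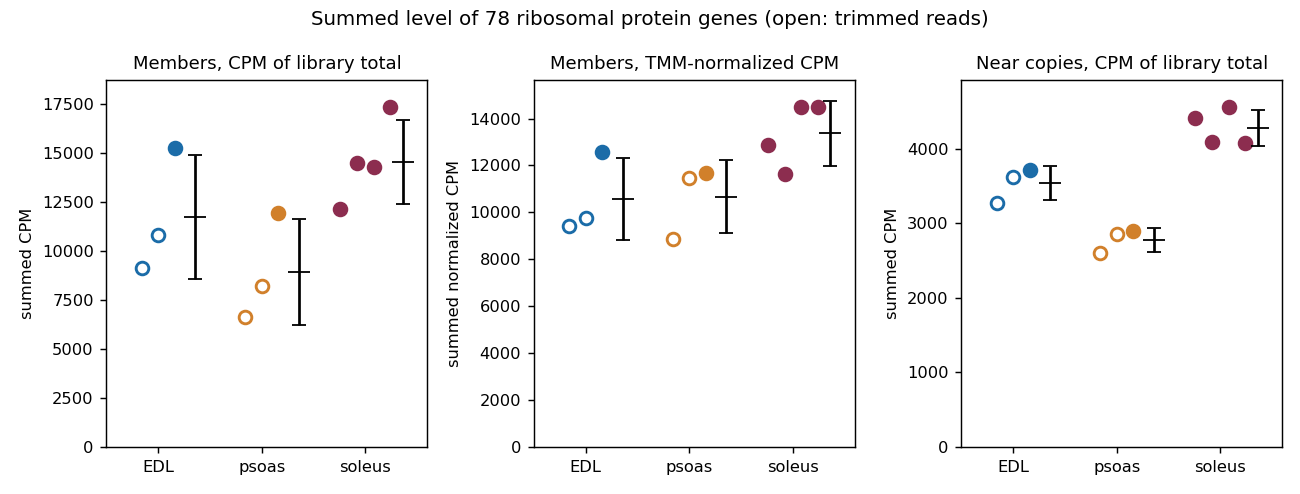
Summed level of the 78 members in each library as CPM of the library total (left) and as TMM-normalized CPM (middle), and of 359 near copies of them as CPM (right). Each circle is a library, open where reads were trimmed, and the bar shows the mean and SD; the untrimmed EDL and psoas libraries are the highest of their muscles in the left panel.

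The animals with 2 libraries gave the same question within an animal. In EDL 3 and soleus 2, both untrimmed, the soleus library was lower for 61 members and higher for 17, with a median log2 ratio of soleus to EDL of -0.13 in normalized CPM. In psoas 3 and soleus 4, both untrimmed as well, soleus was higher for 76 members and lower for 2, with a median of 0.32. In psoas 1, which was trimmed, and soleus 1, soleus was higher for 71 and lower for 7, with a median of 0.59. The direction of soleus against EDL within the single animal was therefore opposite to that of the group means, and these values rest on 1 library of each muscle with no test. The members of a library share its scaling, so each count amounts to 1 difference between 2 libraries. The share and the median of all genes for the same pairs of libraries are not given here.

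Levels per length spanned a wide range among the members. On the scale of normalized CPM per kilobase of summed exons (FPKM), the median member was at 73.4. The highest were Rplp0 at 367, Rplp1 at 318, Rps2 at 211, Rps29 at 202 and Rpl36 at 202, all over the 10 libraries. Rplp0 and Rplp1 encode proteins of the stalk that binds elongation factors. The lowest were Rpl24 at 0.683, Rps15a at 17.3, Rps19 at 18.1, Rps10 at 19.8 and Rpl3 at 20.7. The summed exon length counts rare transcripts, and the order moved when the median length of the coding transcripts was used in its place. Rplp0 remained the highest member, while Rps15a, one of the lowest members, went to position 51 of 78 from the top, at 170 per kilobase. Rpl24 was the lowest by both lengths, and its own counts were close to nothing: 0.275 to 1.46 normalized CPM in 10 libraries, with 46.99% of its exon bases shared on the same strand with the annotated transcript Gm28037 and 94.4% of the reads of its family in 2 near copies. Its level here is therefore uncertain.

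The members tended to vary together, and some of the genes named below did so less. The median correlation between pairs of 77 members (without Rpl24) over the 10 libraries was 0.69 (Pearson, 2926 pairs, log2 normalized CPM). This is a description in which all points share library, depth and trimming. The same value among other genes is not given here. The mean of the other members correlated with Rps2 at 0.60, Rpl3 at 0.38, Rpl3l at 0.16 and Rps27l at -0.20 over the same 10 libraries. The median SD of log2 normalized CPM among libraries of a muscle was 0.25 in EDL, 0.30 in psoas and 0.19 in soleus.

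**Figure D2:**
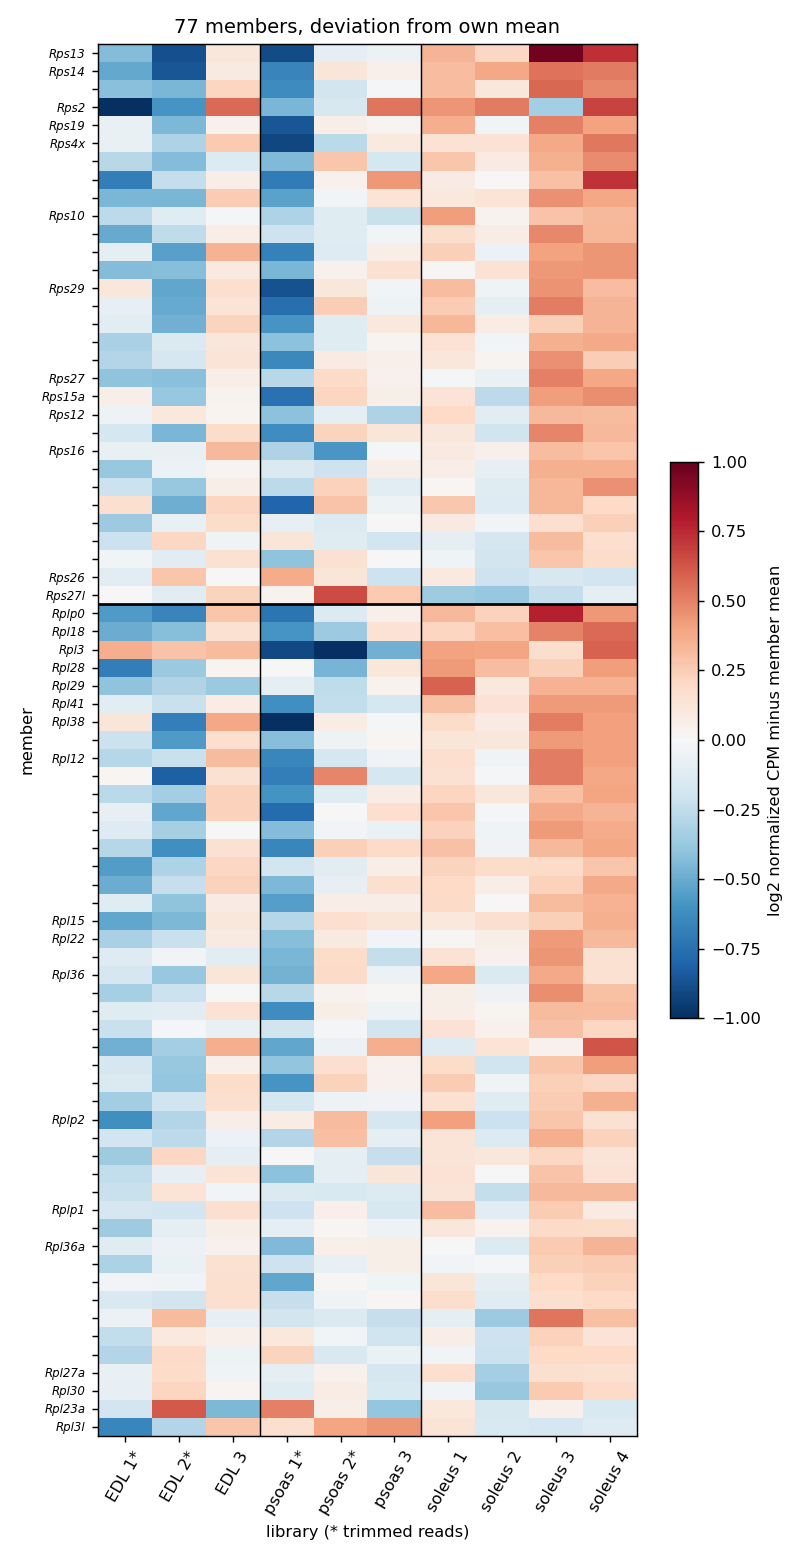
Deviation of log2 normalized CPM from each member's own mean over the 10 libraries, for 77 members (Rpl24 left out), small subunit above the line and large subunit below, with the members named in the text labelled; asterisks mark trimmed libraries. Psoas 1 is blue and soleus 3 and 4 are red in most rows, and Rpl3, Rpl3l, Rps27l and Rpl23a depart from the common pattern.

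Psoas was first set against EDL, the comparison of the 2 fast muscles, and 1 member differed, Rpl3. Rpl3 encodes the large-subunit protein near the peptidyl transferase centre and lies on chr15:80077791-80091868 (minus strand, GRCm38). Its normalized CPM was 78.9, 74.4 and 76.3 in EDL and 32.8, 27.6 and 43.8 in psoas. Every psoas library was below every EDL library, and the means were 76.5 ± 2.24 and 34.7 ± 8.26 (SD, n = 3). The log2 fold change, psoas over EDL, was -1.14 (SE 0.19, adjusted p = 0.0060, edgeR quasi-likelihood, adjusted by Benjamini-Hochberg), and Rpl3 passed both the threshold of adjusted p under 0.05 and that of adjusted p under 0.01 with a fold over 2. Of all genes, 6.34% were called lower and 4.76% higher in psoas at the first threshold, and 2.11% passed the second. For the members the count was 1 lower and 0 higher by edgeR, DESeq2 and limma-voom, and 2 members were at an unadjusted p under 0.05 by edgeR.

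The difference in Rpl3 kept its direction among libraries processed alike, and was called in the trimmed ones. Between the trimmed libraries alone it was -1.35 (SE 0.20, adjusted p = 0.0147), and between the single untrimmed library of each muscle -0.84 (SE 0.27, adjusted p = 0.526), where the spread of the lone EDL and psoas libraries is assumed to be that of soleus. With any single library left out, Rpl3 was at -1.34 to -1.01 and stayed called at adjusted p under 0.05, while the stricter call was lost without EDL 1, EDL 2, psoas 1, psoas 2, soleus 1 or soleus 4 (highest adjusted p = 0.0223, edgeR). With the counts of its 6 near copies added it was -1.24 (SE 0.18, adjusted p = 0.0029). Rpl3 was lowest in psoas, as were the tendon marker sums given above, and the part of tendon and connective tissue in it was not tested. In bulk tissue a lower share of a cell type and less RNA per cell cannot be told apart.

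The muscle paralog Rpl3l, at chr17:24727820-24736143 (plus strand), had the highest log2 fold change of all members in this comparison. Its normalized CPM was 124.7, 160 and 237 in EDL and 219, 257 and 267 in psoas. The groups overlapped through EDL 3, and the log2 fold change of 0.51 (SE 0.23, adjusted p = 0.164) did not pass. Without EDL 3 it was 0.80 with adjusted p = 0.0153 (edgeR). The other high values were 0.35 (SE 0.22) for Rplp2, a stalk protein, 0.33 (SE 0.61) for Rpl24, 0.30 (SE 0.18) for Rps27l and 0.27 (SE 0.21) for Rpl15. The other low values were -0.35 (SE 0.19) for Rps16, -0.29 (SE 0.17) for Rps12, -0.28 (SE 0.26) for Rps4x and -0.26 (SE 0.32) for Rpl38, and none of these passed. The median over the 78 members was 0.00, beside 0.01 over all genes, with 38 above 0 and 40 below, and 76 of 78 lay within 0.5 of 0. All psoas libraries were above all EDL libraries in 1 member (13.4% of all genes) and below in 3 (16.3%).

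**Figure D3:**
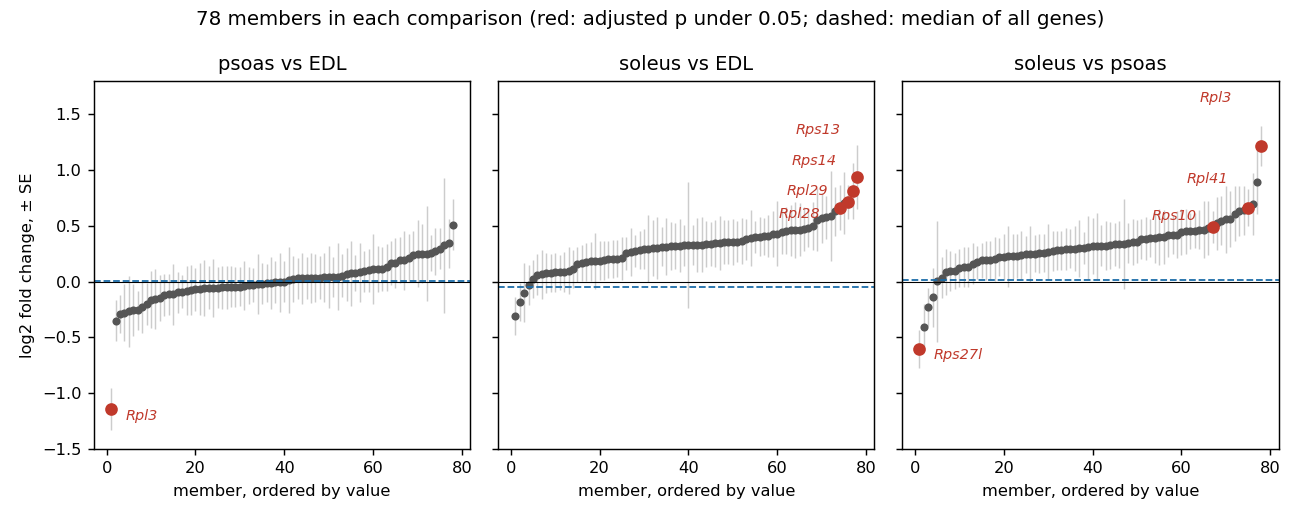
Log2 fold change with its SE of the 78 members in each comparison, ordered by value; red points passed an adjusted p under 0.05 and the dashed line is the median of all genes. The members centre on 0 in psoas vs EDL and lie above the line of all genes in both soleus comparisons, with Rpl3 alone below -1 in the first panel.

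Soleus was next set against EDL, slow against fast muscle of the lower leg, and 4 members rose. Rps13 and Rps14, small-subunit proteins, and Rpl28 and Rpl29, large-subunit proteins, were the calls. Rps13, at chr7:116331505-116334195 (minus strand), was at 48.7, 35.9 and 71.1 normalized CPM in EDL and at 83.5, 76.0, 128.8 and 109 in soleus. The groups did not overlap, but EDL 3 and soleus 2 were close together. The difference on the log2 scale was 0.94 (SE 0.29, adjusted p = 0.043). Rps14 was at 127, 100.7 and 194 in EDL and 226, 238, 265 and 261 in soleus, with 0.82 (SE 0.25, adjusted p = 0.043). Here too EDL 3 was the EDL library nearest to soleus.

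Rpl28, at chr7:4792874-4795066 (plus strand), was at 59.7, 74.4 and 98.3 normalized CPM in EDL and 129.5, 119.5, 113 and 129 in soleus, a difference of 0.66 on the log2 scale (SE 0.20, adjusted p = 0.0398). Of its exon bases, 9.946% lie opposite those of Ube2s, and the strand setting of the counting is not given. Rpl29, at chr9:106429454-106431568 (plus strand), was even across EDL at 60.7, 64.9 and 62.1 and higher in soleus at 121, 86.3, 102 and 102. It gave 0.72 (SE 0.15, adjusted p = 0.0097), the lowest adjusted p of the members in this comparison. For Rpl29, though, 70.5% of the reads of its family lay in 21 near copies, and with these added its log2 fold change was 0.17 (SE 0.17, adjusted p = 0.492). Rps13, Rps14 and Rpl28 with their near copies stayed at 0.86, 0.81 and 0.68 (adjusted p = 0.0329, 0.0345 and 0.0217, edgeR).

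The calls were 4 of 78 members higher, where 9.79% of all genes were called higher in soleus, and 0 lower, where 8.8% of all genes were. At adjusted p under 0.01 with a fold over 2, 0 members passed by edgeR, DESeq2 and limma-voom, beside 5.77% of all genes by edgeR, while 16 members were at an unadjusted p under 0.05. The share of all genes at that unadjusted p is not given here. Of the 78 members, 74 had a log2 fold change above 0, most of them without passing the test, and the median was 0.33 beside -0.05 over all genes, with a range of -0.30 to 0.94. Among the 5 highest was also 0.71 (SE 0.28, adjusted p = 0.0969) for Rplp0. The lowest were -0.30 (SE 0.17) for Rps27l, -0.18 (SE 0.17) for Rps26, -0.10 (SE 0.26) for Rpl23a, -0.03 (SE 0.18) for Rpl30 and 0.02 (SE 0.17) for Rpl27a. All soleus libraries were above all EDL libraries in 11 members (15.2% of all genes) and below in 0 (14.3%).

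The values were smaller once read trimming was taken into account. With read trimming as a covariate, 0 members were called by edgeR and Rps13, Rps14, Rpl28 and Rpl29 were at 0.60, 0.51, 0.39 and 0.65. With untrimmed libraries alone (1 EDL, 4 soleus) 0 members were called and the median over the members was 0.05. Without EDL 3, 17 members were called, all higher in soleus, without EDL 1 the count was 0, and without EDL 2, soleus 1, soleus 3 or soleus 4 it was 1 in each case, Rpl29. The share of all genes called in these fits is not given here, so whether the changes are particular to the members cannot be told. As EDL 3 was the only untrimmed EDL library, trimming and the library itself cannot be told apart here. The adipocyte marker sums were also higher in every soleus library than in every EDL and psoas library, and their part in these values was not tested.

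**Figure D4:**
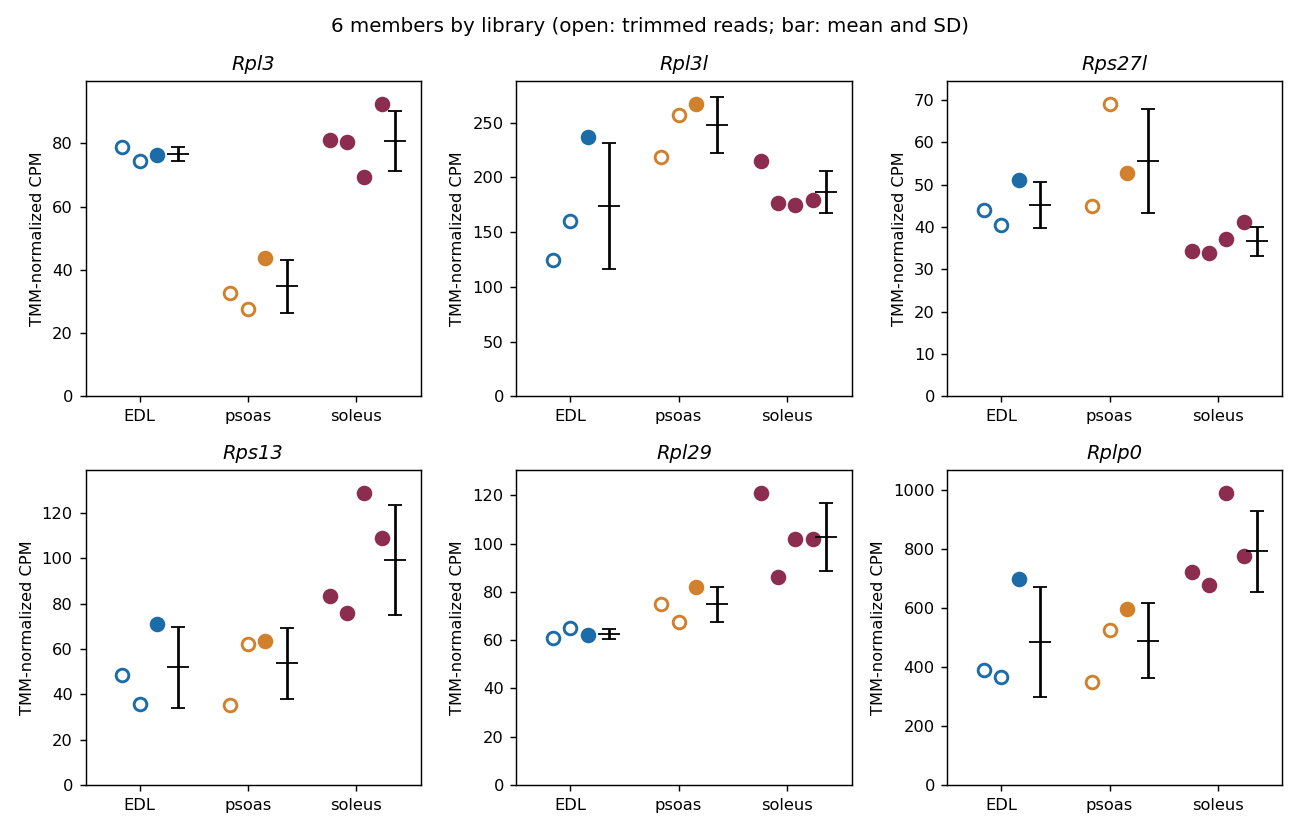
Normalized CPM of 6 members in each library, open circles for trimmed reads, with the mean and SD of each muscle. Rpl3 is low in all 3 psoas libraries, Rpl29 is even across EDL, and EDL 3 stands above EDL 1 and 2 in Rpl3l, Rps13 and Rplp0.

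Soleus against psoas, the slow muscle and the fast trunk muscle, gave 3 members higher and 1 lower. Rpl3 was at 81.0, 80.3, 69.3 and 92.3 normalized CPM in soleus, every library above the 27.6 to 43.8 of psoas. Its log2 fold change was 1.22 (SE 0.18, adjusted p = 0.00122), the highest of the members and the only one past adjusted p under 0.01 with a fold over 2. Soleus and EDL did not separate in Rpl3 (0.08, SE 0.17, adjusted p = 0.781). The 3 comparisons share libraries, so the 2 results for Rpl3 rest on the same psoas values. Within the animals that gave both muscles, Rpl3 went from 32.8 in psoas 1 to 81.0 in soleus 1 and from 43.8 in psoas 3 to 92.3 in soleus 4.

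Rpl41, a very short basic protein of the large subunit, at chr10:128548114-128549305 (minus strand), was at 85.0, 109.6 and 115 normalized CPM in psoas and 159, 144, 175 and 175 in soleus. The groups did not overlap, and the log2 fold change was 0.66 (SE 0.17, adjusted p = 0.0209). Rps10, a small-subunit protein at chr17:27630418-27636669 (minus strand), was at 36.4, 41.4 and 38.6 in psoas and 60.2, 46.2, 54.9 and 56.5 in soleus, with 0.49 (SE 0.14, adjusted p = 0.0399). Rps10 shares 20.55% of its exon bases on the same strand with the readthrough gene RPS10-NUDT3, so that its counts are uncertain. With near copies added it was at 0.45 (adjusted p = 0.0577, edgeR).

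Rps27l, the paralog of Rps27 and a known target of p53, at chr9:66946086-66949516 (plus strand), went the other way. It was at 45.0, 69.0 and 52.7 normalized CPM in psoas and 34.3, 33.7, 37.2 and 41.1 in soleus. All soleus libraries were below all psoas libraries, and the log2 fold change was -0.60 (SE 0.17, adjusted p = 0.0352). Without psoas 2, the highest library, the value was -0.40 and was not called (adjusted p = 0.167, edgeR), nor was it without psoas 3 or without any single soleus library. The call of Rpl41 was lost without psoas 1, soleus 3 or soleus 4, and with single libraries left out that of Rps10 was kept only without EDL 3 or soleus 2. The partner of Rps27l, Rps27, was at 113, 156 and 141 in psoas and 135, 131, 194 and 179 in soleus, with 0.22 (SE 0.21, adjusted p = 0.529).

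The calls were 3 of 78 members higher, where 7.75% of all genes were called higher, and 1 lower, where 6.78% of all genes were. The stricter rule was met by 1 member and by 5.69% of all genes. The median over members was 0.31 beside 0.02 over all genes, 74 of 78 were above 0, and 18 were at an unadjusted p under 0.05, for which the share of all genes is not given here. The other high values were 0.89 (SE 0.29, adjusted p = 0.0612) for Rps13, 0.69 (SE 0.28) for Rplp0 and 0.64 (SE 0.22) for Rpl18. The other low values were -0.41 (SE 0.21) for Rpl3l, -0.23 (SE 0.17) for Rps26, -0.14 (SE 0.26) for Rpl23a and 0.00 (SE 0.54) for Rpl24, none of which passed. All soleus libraries were above all psoas libraries in 21 members (13.9% of all genes) and below in 2 (11.9%), which were Rps27l and Rpl3l. DESeq2 and limma-voom each called 8 members, and the share of all genes called by these tools is not given here. With trimming as a covariate only Rpl3 was called, and with untrimmed libraries alone 0 were called and Rpl3 was at 0.87 (SE 0.23, adjusted p = 0.114). The median over members was then 0.15 and 0.20, and it was 0.16 without psoas 1 and 0.40 without psoas 2.

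**Figure D5:**
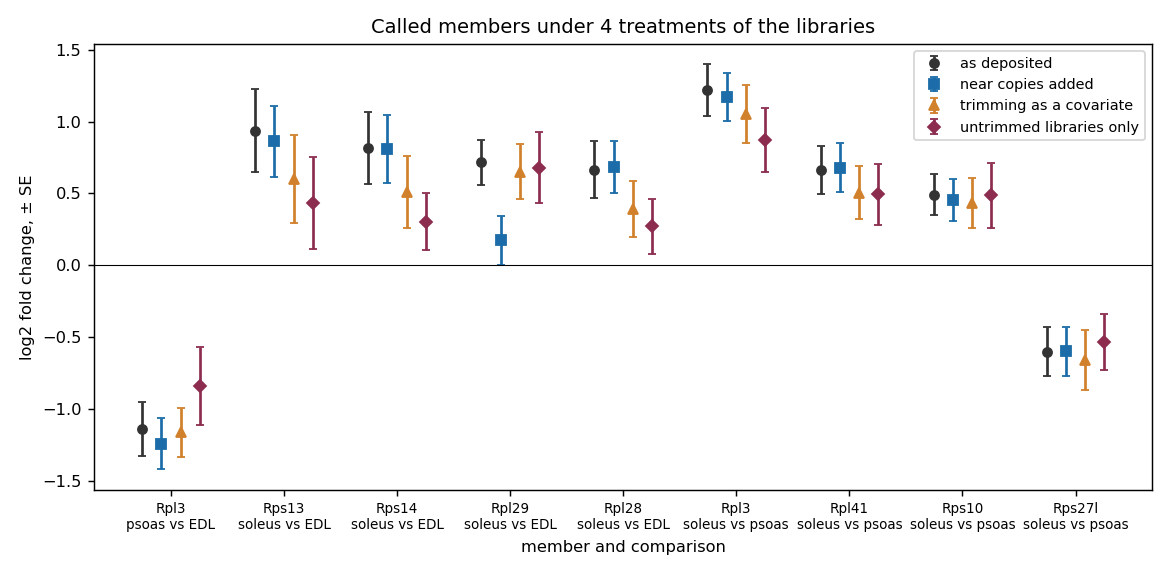
Log2 fold change with its SE of each called member as deposited, with near copies added, with trimming as a covariate, and in untrimmed libraries alone. Rpl29 falls towards 0 when near copies are added, and Rps13, Rps14 and Rpl28 are smaller in the untrimmed libraries, while Rpl3 stays below -0.8 in psoas vs EDL and above 0.8 in soleus vs psoas.

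The paralog pairs were compared as shares, the paralog's level per kilobase in the sum of both genes. Rpl3l made up 75.3%, 80.6% and 85.7% of the Rpl3 pair in EDL, 92.8%, 94.7% and 92.2% in psoas, and 83.7%, 81.0%, 83.0% and 78.9% in soleus. The psoas libraries lay above all others. The means were 80.6 ± 5.19 (SD, n = 3), 93.2 ± 1.3 (n = 3) and 81.6 ± 2.13 (n = 4), so the ratio of Rpl3l to Rpl3 per kilobase averaged 4.405, 14.2 and 4.50. Psoas exceeded EDL by 12.7 points (exact two-sided permutation p = 0.1, the smallest that 3 against 3 allows) and soleus was 11.6 points below psoas (exact permutation p = 0.0571, the smallest that 4 against 3 allows). Adjusted over the 15 tests of 5 pairs, these were 0.25 and 0.171 by the same exact permutation test. Neither design can go below 0.05. These shares and ratios depend on the summed exon lengths, 3175 bases for Rpl3 and 1643 for Rpl3l, while the coding sequences have 1212 and 1224. Without length correction the mean shares were 68.4%, 87.7% and 69.7% in EDL, psoas and soleus. Near copies are left out of them, and 6 copies held 34.9% of the reads of the Rpl3 family, against 0 copies for Rpl3l. With its copies added, Rpl3 was at 99.9 to 141 normalized CPM in EDL, 47.9 to 57.2 in psoas and 107 to 128 in soleus.

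Rps27l made up 35.1%, 33.6% and 31.4% of its pair in EDL, 33.7%, 36.1% and 32.3% in psoas, and 24.5%, 24.8%, 19.7% and 22.7% in soleus. The soleus libraries were below all 6 fast-muscle libraries, by 10.5 points against EDL and 11.1 against psoas on average (exact permutation p = 0.0571 in both). Adjusted over the 15 tests, the exact permutation p was 0.171 in both, and the untrimmed EDL 3 and psoas 3 were the lowest of their muscles but above every soleus library.

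The other pairs were of genes outside the symbol rule with a member as partner. Rpl36al made up 61.8 ± 2.32% of its pair with Rpl36a in EDL, 63.5 ± 2.98% in psoas and 55.1 ± 0.945% in soleus, and all soleus libraries were below all others (exact permutation p = 0.0571 against either). Rpl22l1, at 19.4 ± 8.19%, 19.2 ± 10.03% and 15.9 ± 3.29% with Rpl22, overlapped between muscles, and Rps4l, annotated as a pseudogene, was under 1.5% of its pair with Rps4x in every library. Rpl22 itself was at 72.6 to 96.6 normalized CPM in EDL, 67.5 to 96.8 in psoas and 91.8 to 122 in soleus, and Rpl36a at 46.4 to 51.8, 37.2 to 52.4 and 45.9 to 63.7.

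The stalk genes Rplp0, Rplp1, Rplp2 and Rpl12, whose proteins recruit the elongation factors, gave 0 calls in the 3 comparisons by edgeR and limma-voom, with 0, 1 and 2 at an unadjusted p under 0.05, and DESeq2 called Rplp0 in soleus vs EDL. Rplp0 was at 390, 366 and 700 normalized CPM in EDL, 348, 524 and 597.5 in psoas and 723, 677, 990 and 778 in soleus. EDL 3 reached into the soleus range. Rplp1 was at 140.2, 138 and 175 in EDL, 136, 163 and 140.4 in psoas and 195, 145, 187 and 167 in soleus. Rplp2 spanned 37.8 to 60.5, 51.7 to 72.3 and 49.9 to 76.8, and Rpl12 spanned 110.4 to 167, 85.5 to 130.8 and 131 to 192 in EDL, psoas and soleus.

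Many reads of this family were counted on other genes. Near copies, defined as counted genes at least 95% identical over at least 50% of a member's coding sequence, numbered 359 for 69 members, and 346 of them are annotated as pseudogenes. The median member had 12.2% of its family's reads in copies, and 5 members had over 50%: Rpl24, Rpl29, Rps2, Rpl23a and Rpl15. The copies summed to 3281, 3619 and 3714 CPM of the library total in EDL, 2599, 2853 and 2894 in psoas, and 4409, 4089, 4563 and 4075 in soleus. The muscles did not overlap on this scale, whereas in normalized CPM they did, at 3063 to 3382, 2832 to 3966 and 3284 to 4674.

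Rps2, a small-subunit protein, is an example of a gene with many counts on near copies, 14 in its case. Rps2 itself had 149, 263 and 640 CPM in EDL, 195, 229 and 527 in psoas, and 455, 636, 278 and 684 in soleus, so that the untrimmed libraries were the highest in each fast muscle and soleus 3 was the lowest in soleus. Its copies had 763, 770 and 742 CPM in EDL, 595, 589 and 667 in psoas, and 1218, 822, 1471 and 810 in soleus, with soleus 3 the highest of all. In soleus 3, Rps2-ps10 and Rps2-ps13 held 382 and 265 CPM, against 145 and 87.2 in soleus 4. The sum of gene and copies was 1673, 1458, 1748 and 1494 CPM in soleus and varied less there than either. This did not hold in the fast muscles, where the copies changed less than the gene. The sum was 913, 1033 and 1382 CPM in EDL and 790, 818 and 1195 in psoas. Whether reads moved between gene and copies was not tested. Rps2 and Rps2-ps10 were looked at in this detail after their values were seen.

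The other factors of translation included genes with large differences between muscles. Near copies were sought for the members alone. For these factors and the lists that follow, fits with trimming as a covariate or single libraries left out are not given here. Of 8 elongation genes, 2 were higher and 1 lower in psoas than in EDL, where 4.76% and 6.34% of all genes were. In soleus against EDL 2 were higher and 0 lower, beside 9.79% and 8.8% of all genes. Against psoas 1 was higher and 1 lower in soleus, beside 7.75% and 6.78% of all genes. Eef1a1, the elongation factor used in most tissues, was at 755, 807 and 574 normalized CPM in EDL, 347, 279 and 362 in psoas, and 668, 655, 622 and 665 in soleus. Psoas was below all others, as for Rpl3, at -1.11 on the log2 scale against EDL (SE 0.20, adjusted p = 0.00732), and soleus was above psoas by 0.99 (SE 0.18, adjusted p = 0.00463). Its muscle form Eef1a2 was at 77.7, 146 and 179 in EDL, 385, 341 and 325 in psoas and 360, 428, 336 and 335 in soleus, higher than EDL in both (1.38, SE 0.27, adjusted p = 0.0117, and 1.44, SE 0.26, adjusted p = 0.00383). Eef2k, the kinase that inhibits elongation factor 2, was higher in psoas than in EDL (0.96, SE 0.22) and lower in soleus than in psoas (-1.19, SE 0.21). Eef2 was higher in soleus than in EDL (0.80, SE 0.23, adjusted p = 0.0315).

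Among 12 other messages with a TOP motif, 1 was higher in psoas than in EDL, 2 in soleus than in EDL and 1 in soleus than in psoas, with 0 lower in each. Of all genes, 4.76%, 9.79% and 7.75% were called higher in these comparisons, and 6.34%, 8.8% and 6.78% lower. Tpt1, a growth-linked TOP message, was at 157, 170 and 235 normalized CPM in EDL, 347, 358 and 260.3 in psoas and 322, 295, 356 and 353 in soleus, and passed against EDL in psoas (0.78, SE 0.21) and soleus (0.82, SE 0.20). Hnrnpa1, an RNA-binding protein, passed in soleus against EDL (0.69, SE 0.17) and psoas (0.92, SE 0.17). The medians of the 12 were 0.29, 0.46 and 0.10 in psoas vs EDL, soleus vs EDL and soleus vs psoas. The 7 remaining ribosomal protein genes, which the symbol rule leaves out (Fau, Rack1, Rpl22l1 and Rpl36al among them), gave 0 calls in each comparison by edgeR, DESeq2 and limma-voom, with 0, 0 and 1 at an unadjusted p under 0.05 by edgeR.

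Of 21 initiation factors and their regulators, 5 were higher in psoas than in EDL, 3 were higher and 1 lower in soleus than in EDL, and 1 was higher and 2 lower in soleus than in psoas. Of all genes, 4.76%, 9.79% and 7.75% were called higher in these comparisons, and 6.34%, 8.8% and 6.78% lower. Eif1, which guards start-codon choice, was higher than in EDL in psoas (1.30, SE 0.21) and soleus (1.10, SE 0.20), as was Eif4ebp2, a repressor of cap-dependent translation (1.77, SE 0.34, and 1.57, SE 0.32). The scaffold Eif4g3 was higher in psoas than in EDL (0.95) and lower in soleus than in psoas (-1.11). Of 17 genes of mTORC1 and its S6 kinase branch, 4 were higher in psoas than in EDL, 3 were higher and 1 lower in soleus than in EDL, and 1 was lower in soleus than in psoas. These counts stand beside the same shares of all genes. Rptor, the mTORC1 subunit that recruits substrates, was higher than in EDL in psoas (0.96, SE 0.26) and soleus (1.44, SE 0.25), and the kinase Mtor itself was higher in soleus than in EDL (1.13, SE 0.20). Deptor, an mTOR inhibitor, was higher in psoas than in EDL (1.53, SE 0.39) and lower in soleus than in psoas (-2.55, SE 0.37). Larp1, which holds TOP messages, was higher in psoas than in EDL (1.22, SE 0.28).

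Of 35 ribosome assembly genes, 1 was higher in psoas than in EDL, 3 in soleus than in EDL and 2 in soleus than in psoas, where 4.76%, 9.79% and 7.75% of all genes were called higher, with 0 lower in each by edgeR and medians of 0.13, 0.09 and -0.06. Nob1, the nuclease that finishes the small subunit's RNA, was at 8.08, 7.41 and 9.94 normalized CPM in EDL, 6.94, 7.74 and 10.05 in psoas and 13.2, 14.95, 15.15 and 15.25 in soleus. All soleus libraries were above all others (0.79, SE 0.17, adjusted p = 0.0102 against EDL and 0.84, SE 0.18, adjusted p = 0.00847 against psoas). Fbl, the methyltransferase of ribosomal RNA, and Rrp12, an export factor of pre-ribosomes, were higher in soleus than in EDL (0.72, SE 0.18, and 0.65). Nop2, another RNA methyltransferase, was higher in psoas than in EDL (0.93), and Nvl, an ATPase of large-subunit assembly, in soleus than in psoas (0.86). Of 13 genes of ribosomal DNA transcription, Tcof1 was higher in psoas than in EDL (1.10, SE 0.26) and Taf1a lower in soleus than in EDL (-0.70, SE 0.21), and 0 were called in soleus vs psoas by edgeR, with 2 at an unadjusted p under 0.05 and 1 called by each of DESeq2 and limma-voom. Of all genes, 4.76% were called higher in psoas than in EDL and 8.8% lower in soleus than in EDL.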

How the data were processed

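Total RNA of 10 muscle samples had been made into ribosomal-RNA-depleted, stranded libraries. The authors deposited raw read counts per Ensembl gene: reads were trimmed with Trimmomatic 0.32 in 4 libraries, aligned to GRCm38.p4 with TopHat2 2.1.1, counted with Bioconductor packages and genes were kept if 3 or more samples had 10 or more reads each. How reads with several matches and the strand were treated is not given in the sources used here. The sequencing run of each library is not given there either, and no correction for it was made here. Totals of 12737971 to 50431713 counts per library set the precision. Here counts were tested with edgeR 4.0.16 (TMM, quasi-likelihood, all 10 libraries in 3 groups, no covariate, Benjamini-Hochberg over 16112 genes), after a check on simulated counts. Symbols, exons and coding sequences came from GENCODE M21. Near copies were found with BLAST+ 2.17.0. Shares of paralogs were compared by exact permutation tests (scipy 1.17.1). Alternatives were DESeq2 1.42.0, limma 3.58.1 with the animal as a random effect, other scalings, filters, covariates and sample sets, of which the addition of near copies, the fits split by trimming and the transcript length were chosen after seeing the data.

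The members and gene lists were chosen with earlier results of these data known. Named members were both genes of each paralog pair, the stalk genes, the 5 highest and lowest log2 fold changes per comparison, those past adjusted p under 0.01 with a fold over 2, and the 5 highest and lowest levels per kilobase, and of other lists up to 4 called genes per comparison. Some single genes are not reported here. Muscles from 1 animal count as separate samples, and the study's text and the labels differ in how many animals were used.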

Additional observations from a re-analysis of the deposited data

Results flagged for a closer look

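Of 85 sets of 4 soleus values examined (78 members, 5 paralog shares and 2 sums), 6 held a library far from the other 3 by Dixon's test at its 95% level, and chance gives about 1 in 20. The 5 given here are in normalized CPM. Soleus 2 was the lowest for Rpl13 at 144.4, for Rpl27a at 114.6 and for Rpl32 at 116.3. Soleus 1 was the highest for Rpl3l at 215.0 and for Rps26 at 47.8.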

How the results depend on the processing

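Counts are members called out of 78 unless a scale is named, and medians and single-gene values are log2 fold changes. The share of all genes called under each of these settings is not given here. In psoas vs EDL the count at adjusted p under 0.05 was 0 in untrimmed libraries only and 1 to 2 with each library left out. At adjusted p under 0.01 with a fold over 2 it was 0 with the 2 muscles fitted alone, with the replicate block, and in the untrimmed or the trimmed libraries only, and 0 to 1 with each library left out. In soleus vs EDL the count was 9 by DESeq2, 0 with trimming as a covariate, 0 in untrimmed libraries and 0 to 17 with each library left out, and the stricter count 0 to 1. The median of the members was 0.0539 in untrimmed libraries. In soleus vs psoas the count was 8 by DESeq2 and by limma-voom, 9 with at least 50 reads, 1 with trimming as a covariate, 2 with low read mapping as a covariate, 2 with a length offset, 0 in untrimmed libraries (stricter count 0) and 1 to 7 with each library left out. The cause of these changes was not tested.

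Replicate numbers were not taken as pairs. The correlations of deviations within numbers 1, 2 and 3 were 0.248, 0.0881 and 0.503 in psoas vs EDL, all above 0, where same-numbered samples share age and trimming but no animal code. They were 0.336, -0.153 and -0.036 in soleus vs EDL and 0.340, -0.234 and -0.076 in soleus vs psoas, where only psoas 1 and soleus 1 share both a number and an animal. With the replicate number as a block the counts were 1, 2 and 1 in psoas vs EDL, soleus vs EDL and soleus vs psoas.

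With near copies the summed level was 15268 CPM in EDL, 11728 in psoas and 18847 in soleus, and without mitochondrial genes in the total soleus was at 18901. Without length correction the paralog shares were 68.4%, 87.7% and 69.7% for Rpl3l, 56.9%, 58.7% and 50.08% for Rpl36al and 28.2%, 28.7% and 18.9% for Rps27l in EDL, psoas and soleus, and in soleus 11.4% for Rpl22l1 and 0.274% for Rps4l. In untrimmed libraries Rpl36al was at 60.4% in psoas, Rps27l at 31.4% in EDL, and Rps4l at 0.259% in EDL and 0.053% in psoas.

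Changes of sign were found in members that were not called. In psoas vs EDL, untrimmed libraries gave -0.0282 for Rpl15 and -0.26 for Rplp2, and Rpl24 was at -0.16 by limma-voom and at -0.54 (without psoas 2) to 0.75 with single libraries left out. In soleus vs EDL, Rpl23a was at 0.0037 by limma-voom, 0.40 with the trimming covariate, 0.0039 with near copies, 0.37 in untrimmed libraries and -0.30 to 0.28 with single libraries left out, the highest without EDL 2. Rpl27a was at -0.0024 by limma-voom, -0.0686 with upper-quartile scaling, -0.03 with at least 50 reads, -0.0165 with the block and -0.0758 to 0.13 with single libraries left out. Rpl30 was at 0.0305 with the trimming covariate, 0.0004 with a length offset and -0.17 to 0.0855 with single libraries left out. In soleus vs psoas, Rpl23a was at 0.36 with the trimming covariate, 0.34 in untrimmed libraries and -0.33 to 0.0856 with single libraries left out. Rpl24 was at -0.0305 by DESeq2, -0.0261 with DESeq2 size factors, -0.0122 with upper-quartile scaling and -0.43 to 0.87 with single libraries left out. Rps26 was at 0.0841 in untrimmed libraries.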
